A study of Homo sapiens with 18 samples.

Results

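The genes described here are 8 genes of crest mesenchyme and the developing face: the receptors PDGFRA and EDNRA, the transcription factors MEF2C, TWIST1 and PRRX1, and the secreted proteins PRELP, SCUBE2 and SCRG1. A member was read from probe sets whose platform annotation names that gene alone, and where there were several the 1 with the highest mean was to be taken. Of the 8 genes, 7 had such a probe set, exactly 1 each, so the mean chose nothing. No probe set used here was annotated to EDNRA, which was not analysed here. The 7 genes stand among 18417 with a probe set of their own. All 7 were among the 14209 genes tested, which lay above the 40th percentile of their array on 3 or more arrays. MEF2C passed that filter only through the 3 control shRNA embryoid body arrays, so a difference there was bound to appear, and counts over the 7 are given as a description. SCUBE2 passed it on 6 arrays, those of control shRNA and untransduced embryoid bodies. SCRG1 passed on the same arrays and on 1 of KBTBD8 shRNA embryoid bodies. For both, the filter favoured lower values with the KBTBD8 shRNA in embryoid bodies. It also favoured higher values in embryoid bodies than in pluripotent cells. The genes were chosen by name with earlier results of these arrays known, and the measured values that entered the choice were the mean level of a probe set and the position of 2 arrays between the states.

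The study measured transcripts of H1, a human embryonic stem cell line, on 18 Affymetrix Human Gene 1.0 ST arrays in 6 groups of 3. The treatments were each examined in embryoid bodies, which are aggregates left to differentiate for 6 days in APEL medium, and in pluripotent cells on Matrigel in mTeSR1 medium. The treatments were a lentivirus with an shRNA against KBTBD8, a lentivirus with a control shRNA, and no transduction. KBTBD8 brings substrates to CUL3, a ubiquitin ligase, and is known for a part in crest formation. All groups share the 1 cell line. The design text calls the 3 samples of a group independent without naming separate cultures, so the spread behind each p-value may be partly technical.

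Cranial neural crest cells leave the border of the neural plate, turn into mesenchyme and build most of the bone, cartilage and connective tissue of the face. PDGFRA is the receptor through which PDGFA and PDGFC act on this mesenchyme. EDNRA is the receptor for EDN1 that sets the identity of the lower jaw, and in the mouse MEF2C acts in the same cells. TWIST1, a basic helix-loop-helix factor, keeps crest cells mesenchymal, and its loss in people fuses the skull sutures early. PRRX1 is a homeodomain factor of jaw and limb mesenchyme. PRELP is a small leucine-rich proteoglycan that ties basement membranes to connective tissue, SCUBE2 helps to release Hedgehog ligands from cells, and SCRG1 is a small secreted protein found in cartilage and mesenchymal cells.

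A pair of arrays lay with the other state and is read apart throughout. Over the tested genes, the KBTBD8 shRNA array numbered 2 that is labelled embryoid bodies had a correlation of 0.991 with the mean of the other pluripotent KBTBD8 shRNA arrays and of 0.912 with that of its labelled group. The array numbered 2 that is labelled pluripotent had 0.987 with the embryoid body arrays of that shRNA and 0.906 with its labelled group. Each of the remaining 16 was closest to the group it is labelled as. Levels, means and differences below rest on these 16 arrays, with 2 in each KBTBD8 shRNA group and 3 in each of the others, and values with all 18 arrays under their given labels follow where a result rests on the pair. Differences between groups without the KBTBD8 shRNA are the same on all 18 arrays. For them the pair enters only the estimate of spread that all groups share, so a call can be lost while the difference stays. KBTBD8 itself averaged 5.04 ± 0.12 (SD, n = 2) in pluripotent cells with its shRNA, against 6.84 ± 0.39 (n = 3) with the control shRNA, a difference of -1.79 ± 0.26 (standard error, limma adjusted p 2.8e-04). In embryoid bodies it averaged 4.76 ± 0.15 (n = 2) with its shRNA, against 4.75 ± 0.31 (n = 3) with the control shRNA, so a lower KBTBD8 transcript level was not measurable in embryoid bodies. All levels are log2 intensities, and levels of different genes are not compared because each probe set has its own scale. Arrays were made from bulk RNA, in which fewer cells of a type and less RNA per cell cannot be told apart.

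The upstream sequences of PDGFRA, PRELP, SCUBE2 and SCRG1 are shown because these genes, with MEF2C, were highest in control shRNA embryoid bodies and lower there with the KBTBD8 shRNA. Each is the 250 bases before a RefSeq transcript start, from GRCh38.p14, read 5′ to 3′ on the gene's strand. The windows are chr4:54229043-54229292 on the plus strand for the first of the PDGFRA starts, chr1:203475556-203475805 on the plus strand for PRELP, chr11:9091600-9091849 on the minus strand for SCUBE2 and chr4:173399117-173399366 on the minus strand for SCRG1. Capitals mark the E-box CANNTG, the motif of basic helix-loop-helix factors such as TWIST1, searched on both strands.
PDGFRA: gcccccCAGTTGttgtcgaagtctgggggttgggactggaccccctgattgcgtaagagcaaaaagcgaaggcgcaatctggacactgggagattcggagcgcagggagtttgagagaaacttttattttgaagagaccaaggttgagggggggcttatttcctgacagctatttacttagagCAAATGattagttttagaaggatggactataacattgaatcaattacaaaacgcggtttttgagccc
PRELP: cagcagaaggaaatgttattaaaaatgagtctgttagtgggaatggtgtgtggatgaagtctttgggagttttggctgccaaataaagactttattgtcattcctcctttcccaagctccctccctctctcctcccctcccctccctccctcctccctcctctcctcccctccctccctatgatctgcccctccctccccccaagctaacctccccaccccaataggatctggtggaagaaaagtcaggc
SCUBE2: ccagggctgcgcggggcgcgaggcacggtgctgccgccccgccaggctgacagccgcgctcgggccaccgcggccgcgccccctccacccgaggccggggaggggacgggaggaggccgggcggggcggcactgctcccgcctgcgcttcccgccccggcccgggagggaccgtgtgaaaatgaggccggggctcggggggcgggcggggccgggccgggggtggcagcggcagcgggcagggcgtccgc
SCRG1: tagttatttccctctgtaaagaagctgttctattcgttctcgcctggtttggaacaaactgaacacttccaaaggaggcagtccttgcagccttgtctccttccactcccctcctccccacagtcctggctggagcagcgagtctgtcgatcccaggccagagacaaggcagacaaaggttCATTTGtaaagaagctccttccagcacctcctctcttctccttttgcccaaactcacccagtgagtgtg

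RefSeq windows matched 7 of the 8 listed genes, 14 windows in all, 7 of them for MEF2C, and TWIST1 is named only. The E-box was found 2 times in the PDGFRA window shown and 1 time in that of SCRG1, and the windows of PRELP and SCUBE2 held 0. Among all 35116 windows of the same length, 61.8% held an E-box. The TFAP2 motif GCCNNNGGC, held by 19.8% of all windows, and the MEF2 motif, held by 0.5%, were in none of the 14. Among the 4 windows shown, the share of G and C ran from 46.8% for PDGFRA to 83.6% for SCUBE2. A match or its absence describes these letters only.

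The 7 measured genes did not behave as 1 group. PRELP, SCUBE2 and SCRG1 were highest in control shRNA embryoid bodies, intermediate in untransduced embryoid bodies and lower again in KBTBD8 shRNA embryoid bodies. MEF2C and PDGFRA were also highest in control shRNA embryoid bodies, but untransduced embryoid bodies had the lowest MEF2C mean of the 6 groups. TWIST1 had its highest mean in KBTBD8 shRNA embryoid bodies, and PRRX1 varied little and stayed low on every array.

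**Figure D1:**
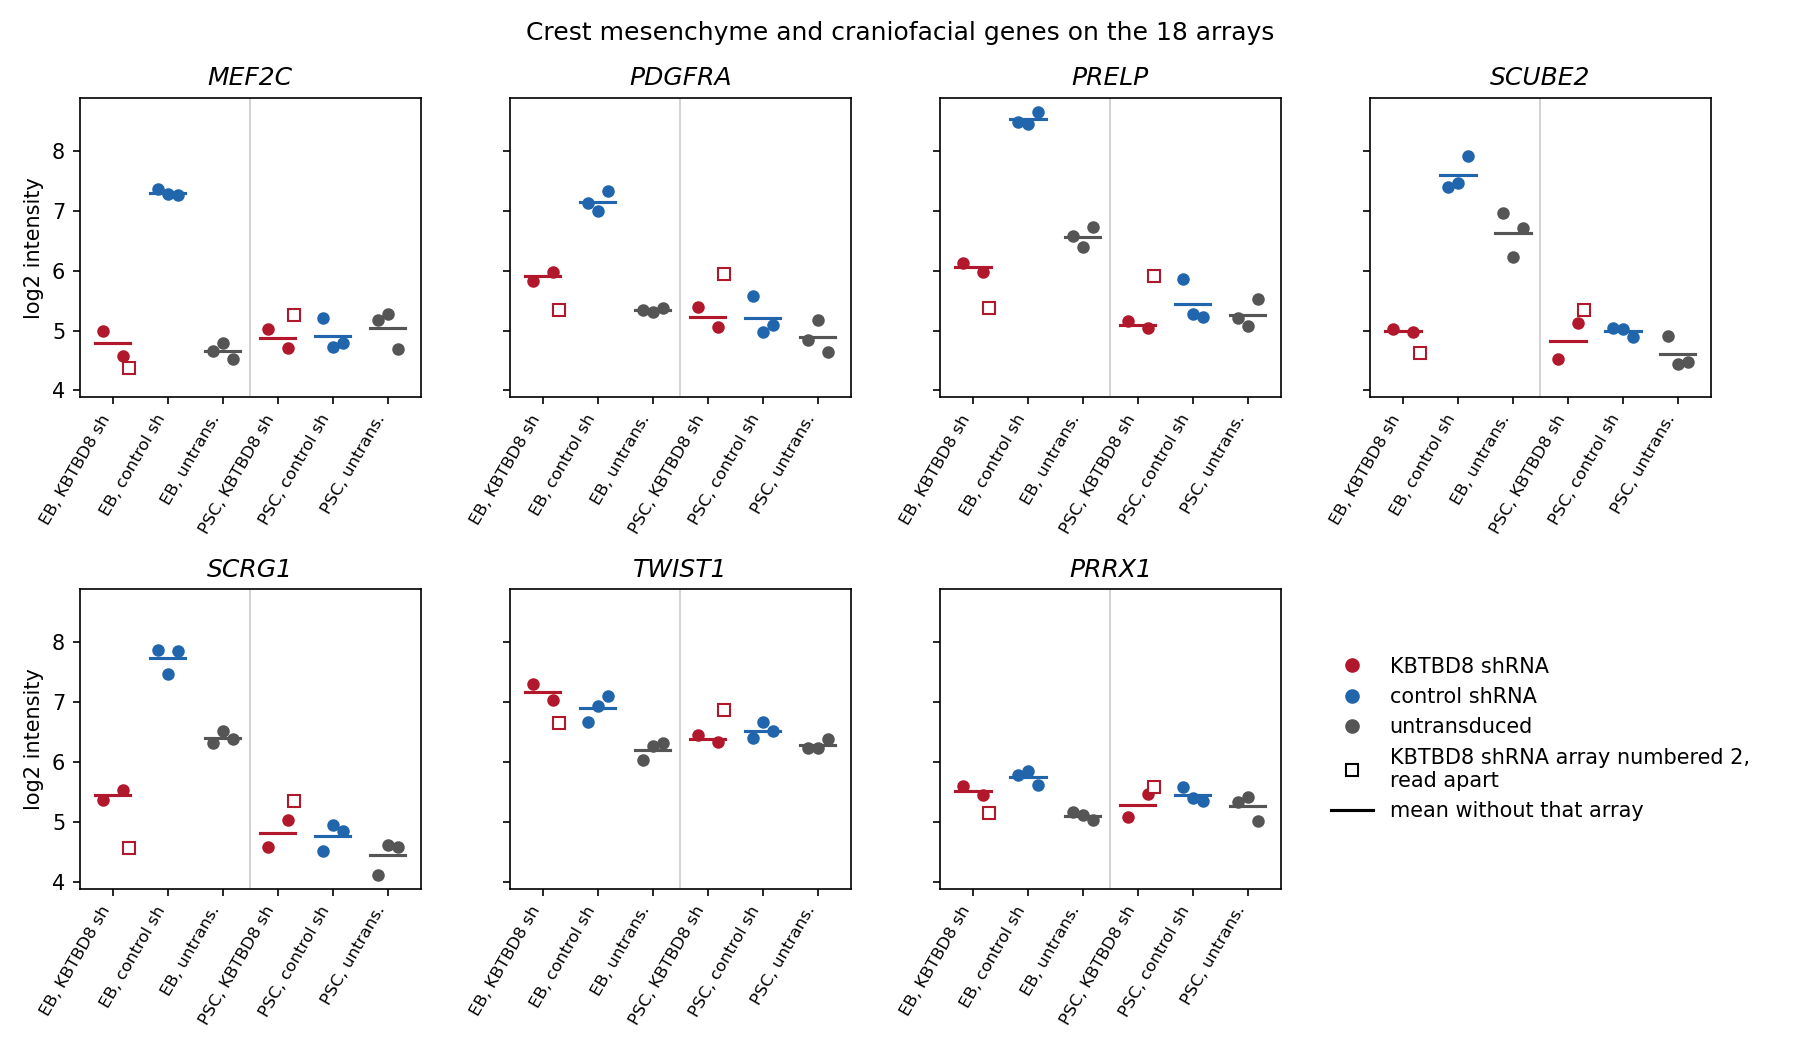
Log2 intensity (vertical axis) of the 7 measured genes on each of the 18 arrays, with embryoid bodies (EB) left of pluripotent cells (PSC) in each panel. Filled points are the 16 arrays used for the group means, which are drawn as lines, and open squares are the KBTBD8 shRNA arrays numbered 2, which are read apart. MEF2C lies between 7.27 and 7.36 on the control shRNA embryoid body arrays and at 5.27 or lower on all others.

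PDGFRA was measured at 5.82 and 5.99 in KBTBD8 shRNA embryoid bodies, against 7.13, 7.002 and 7.33 with the control shRNA and 5.35, 5.31 and 5.38 without transduction. No value of one of these groups lay within another. Such separation was common, with 18.2% of all genes lower in KBTBD8 shRNA than in control shRNA embryoid bodies and 32.1% higher in control shRNA than in untransduced ones. In pluripotent cells it was 5.39 and 5.07 with the KBTBD8 shRNA, 5.57, 4.98 and 5.09 with the control shRNA and 4.85, 5.17 and 4.64 untransduced, and these groups overlapped. The order of the group means thus had control shRNA embryoid bodies first and KBTBD8 shRNA embryoid bodies second, while each of the remaining neighbours overlapped with the next. On the arrays PDGFRA lay at the 44.9 to 49.4 percentile in KBTBD8 shRNA embryoid bodies and at the 65.6 to 70.6 percentile with the control shRNA. In pluripotent cells it lay between the 29.0 and 40.6 percentile.

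Among the transcription factors, MEF2C was measured at 4.999 and 4.57 in KBTBD8 shRNA embryoid bodies, against 7.36, 7.29 and 7.27 with the control shRNA and 4.66, 4.79 and 4.53 untransduced. Only the control shRNA embryoid bodies stood apart, and the other 5 groups formed a chain in which each overlapped with its neighbour. Pluripotent cells had MEF2C between 4.70 and 5.27 over the 3 treatments. MEF2C lay at the 69.8 to 71.0 percentile on the arrays of control shRNA embryoid bodies and between the 26.3 and 38.4 percentile on the 13 others, all below the 40th used as a filter.

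TWIST1 was measured at 7.30 and 7.04 in KBTBD8 shRNA embryoid bodies, against 6.67, 6.94 and 7.10 with the control shRNA and 6.03, 6.26 and 6.32 untransduced. The 2 shRNA groups overlapped, and both lay above the untransduced one, as 32.1% of all genes did with the control shRNA. In pluripotent cells TWIST1 was 6.44 and 6.34 with the KBTBD8 shRNA, 6.40, 6.66 and 6.51 with the control shRNA and 6.24, 6.23 and 6.38 untransduced. It was above the filter on all 18 arrays. PRRX1 ran from 5.02 to 5.85 over the 16 arrays, between the 33.8 and 46.2 percentile. Its group means were 5.52 ± 0.11 (SD, n = 2) in KBTBD8 shRNA embryoid bodies, 5.75 ± 0.13 (n = 3) with the control shRNA and 5.10 ± 0.07 (n = 3) untransduced, and from 5.26 to 5.44 in the pluripotent groups.

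The secreted proteins kept 1 order in embryoid bodies. PRELP was measured at 6.13 and 5.98 in KBTBD8 shRNA embryoid bodies, against 8.49, 8.46 and 8.66 with the control shRNA and 6.58, 6.40 and 6.73 untransduced. SCUBE2 was measured at 5.02 and 4.98 with the KBTBD8 shRNA, against 7.39, 7.47 and 7.92 with the control shRNA and 6.96, 6.23 and 6.71 untransduced. SCRG1 was measured at 5.37 and 5.53 with the KBTBD8 shRNA, against 7.87, 7.47 and 7.86 with the control shRNA and 6.31, 6.52 and 6.38 untransduced. For each of the 3 genes the embryoid body groups did not overlap, with the control shRNA highest and the KBTBD8 shRNA lowest. Groups that did not overlap in these directions were common, with 18.2% of all genes lower in KBTBD8 shRNA than in control shRNA embryoid bodies, 29.6% lower in KBTBD8 shRNA than in untransduced ones and 32.1% higher in control shRNA than in untransduced ones. In pluripotent cells the groups of SCUBE2 and SCRG1 overlapped between KBTBD8 shRNA and control shRNA, whereas both PRELP arrays with the KBTBD8 shRNA (5.04 and 5.16) lay below the control shRNA ones (5.23, 5.27 and 5.86). This PRELP difference did not pass (limma, adjusted p 0.19). How many of all genes were separated in pluripotent cells was not counted, so nothing is read from it. Over all pluripotent groups PRELP lay between 5.04 and 5.86, SCUBE2 between 4.45 and 5.13 and SCRG1 between 4.11 and 5.03. The KBTBD8 shRNA embryoid bodies lay above every pluripotent array for PRELP and SCRG1, and within the range of the pluripotent arrays for SCUBE2.

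The arrays read apart are given by their labels. The array labelled embryoid bodies had PRELP at 5.37, SCRG1 at 4.56, PDGFRA at 5.35 and TWIST1 at 6.65, against 5.91, 5.35, 5.94 and 6.86 on the array labelled pluripotent. MEF2C was 4.37 on the first and 5.26 on the second, and SCUBE2 was 4.62 and 5.33. For all 7 genes the array labelled pluripotent was the higher of the pair.

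The KBTBD8 shRNA was compared with the control shRNA in embryoid bodies, where a lower KBTBD8 transcript level was not measurable. In KBTBD8 shRNA embryoid bodies, 5 of the 7 measured genes were lower than in control shRNA embryoid bodies and 0 were higher, namely MEF2C, PDGFRA, PRELP, SCUBE2 and SCRG1. Of all genes tested, 2.96% were lower and 2.84% higher in this comparison (limma, Benjamini-Hochberg adjusted p under 0.05). SCUBE2 fell by 2.60 ± 0.21 on the log2 scale (standard error), a 6.04-fold difference (adjusted p 8.1e-07). MEF2C fell by 2.52 ± 0.18, 5.73-fold (adjusted p 1.5e-07), and PRELP by 2.48 ± 0.17, 5.57-fold (adjusted p 1.2e-07). SCRG1 fell by 2.28 ± 0.18 (adjusted p 4.5e-07) and PDGFRA by 1.25 ± 0.17, 2.38-fold (adjusted p 1.9e-04). Sorted by difference over the 14209 genes tested, SCUBE2 stood at rank 6 from the bottom, with MEF2C at 8, PRELP at 10, SCRG1 at 14 and PDGFRA at 49. MEF2C and SCUBE2 were above the filter on no KBTBD8 shRNA array, and SCRG1 on 1. Their lower values, p-values and ranks were thus favoured by the filter and are given as a description. TWIST1 differed by 0.27 ± 0.13 (adjusted p 0.34) and PRRX1 by -0.23 ± 0.13 (adjusted p 0.47). The 95% interval for TWIST1 ended at 0.54 above and at -0.01 below, above the intervals of the 5 lower genes. With all 18 arrays the same 5 genes were lower, by 1.43 for PDGFRA to 2.72 for SCUBE2, where 1.51% of all genes were.

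In pluripotent cells 0 of the 7 genes passed the limma test between KBTBD8 shRNA and control shRNA, and 0 had an unadjusted p under 0.05, where 14.0% of all genes passed. The differences ran from -0.35 ± 0.17 for PRELP to 0.04 ± 0.18 for SCRG1. MEF2C was at -0.04 (95% interval -0.42 to 0.34) and PDGFRA at 0.01 (-0.35 to 0.38). The difference between the states was fitted as an interaction. This contains the differentiation contrast under the KBTBD8 shRNA, whose arrays numbered 2 were set apart for their state. Its p-values and calls are therefore given as a description. The knockdown difference of embryoid bodies minus that of pluripotent cells was -2.48 ± 0.25 for MEF2C (adjusted p 1.7e-05), -2.44 ± 0.30 for SCUBE2, -2.32 ± 0.25 for SCRG1, -2.13 ± 0.24 for PRELP and -1.26 ± 0.24 for PDGFRA (adjusted p 0.0035), and all 5 passed. In this interaction 6.12% of all genes passed in the same direction. TWIST1 (0.40, adjusted p 0.20) and PRRX1 (-0.06, adjusted p 0.89) did not pass. With 18 arrays the same 5 passed, at -1.69 for PDGFRA to -2.80 for SCRG1, where 2.06% of all genes did.

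**Figure D2:**
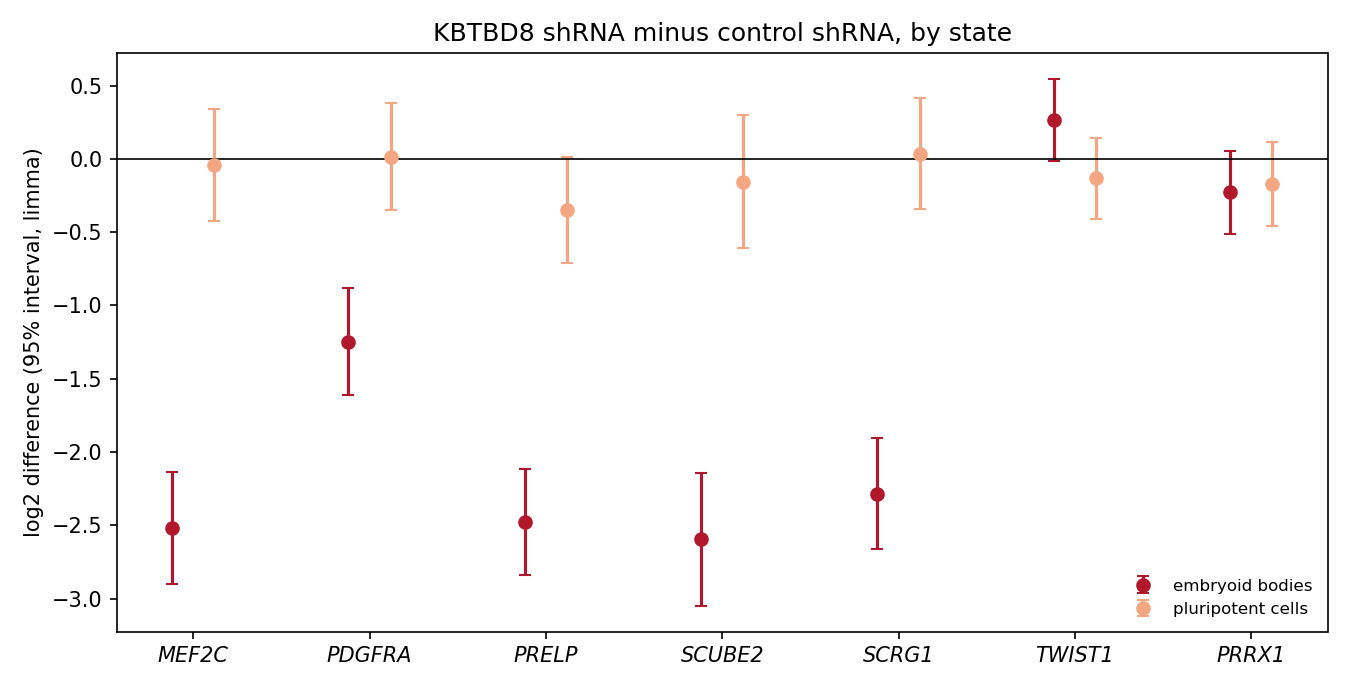
Log2 difference (vertical axis) between KBTBD8 shRNA and control shRNA for each measured gene, in embryoid bodies and in pluripotent cells, from the 16 arrays. Bars are 95% intervals of the limma fit. In embryoid bodies MEF2C, PDGFRA, PRELP, SCUBE2 and SCRG1 lie between -2.60 and -1.25, whereas all 7 genes lie between -0.35 and 0.04 in pluripotent cells.

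Embryoid bodies with the control shRNA had all 7 measured genes higher than untransduced embryoid bodies, where 24.6% of all genes were higher. MEF2C was higher by 2.64 ± 0.16, 6.24-fold (limma, adjusted p 4.1e-09), PRELP by 1.96 ± 0.15, 3.90-fold (adjusted p 6.6e-08), and PDGFRA by 1.81 ± 0.15, 3.50-fold (adjusted p 1.9e-07). The MEF2C difference was bound to appear, since MEF2C was above the filter only on the control shRNA embryoid body arrays. SCRG1 was higher by 1.33 ± 0.16, SCUBE2 by 0.96 ± 0.19, TWIST1 by 0.70 ± 0.12 and PRRX1 by 0.64 ± 0.12, each with an adjusted p of 8.2e-04 or less. In pluripotent cells the same contrast called 0 of 7, with 1 (PDGFRA, 0.33 ± 0.15) at an unadjusted p under 0.05, where 29.1% of all genes passed. The interaction with the state passed for MEF2C (2.78 ± 0.23), PRELP (1.78 ± 0.22), PDGFRA (1.48 ± 0.22) and SCRG1 (0.99 ± 0.23), against 8.26% of all genes in that direction. SCUBE2 (0.59 ± 0.27, adjusted p 0.16), TWIST1 (0.46 ± 0.17, adjusted p 0.069) and PRRX1 (0.46 ± 0.17, adjusted p 0.078) did not pass. SCRG1 lost this call with 18 arrays (adjusted p 0.12). The virus, the shRNA and any other difference between these cultures cannot be told apart.

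Against untransduced embryoid bodies the KBTBD8 shRNA embryoid bodies had members in both directions. PRELP (-0.51 ± 0.17), SCUBE2 (-1.63 ± 0.21) and SCRG1 (-0.96 ± 0.18), the secreted proteins, were lower, where 18.6% of all genes were. PDGFRA (0.56 ± 0.17), TWIST1 (0.96 ± 0.13) and PRRX1 (0.42 ± 0.13) were higher, where 22.5% of all genes were. MEF2C was at 0.12 ± 0.18 (adjusted p 0.61). With all 18 arrays 1 was higher, TWIST1, and 3 were lower, where 17.6% and 14.1% of all genes were, and the calls of PDGFRA (adjusted p 0.21) and PRRX1 (0.14) were lost. Both were also lost by quantile normalization (adjusted p 0.076 and 0.175) and without KBTBD8 shRNA replicate 3 for PDGFRA (0.106) or replicate 1 for PRRX1 (0.162). PRRX1 (0.0669) and PRELP (0.0883) lost theirs without untransduced replicate 3, and PRELP also without either KBTBD8 shRNA array (0.0644 and 0.133). The 3 comparisons among embryoid bodies share their groups, so their values are not independent of each other.

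Embryoid bodies were compared with pluripotent cells within each treatment. In control shRNA cells all 7 were higher in embryoid bodies than in pluripotent cells, where 23.1% of all genes were higher. PRELP rose by 3.08 ± 0.15, 8.48-fold (adjusted p 1.5e-10), SCRG1 by 2.96 ± 0.16, SCUBE2 by 2.61 ± 0.19, MEF2C by 2.39 ± 0.16 and PDGFRA by 1.94 ± 0.15. The rises of MEF2C, SCUBE2 and SCRG1 were favoured by the filter, since no pluripotent array had these genes above it. TWIST1 rose by 0.38 ± 0.12 (adjusted p 0.013) and PRRX1 by 0.30 ± 0.12 (adjusted p 0.046), and with 18 arrays both calls were lost (adjusted p 0.092 and 0.12). The TWIST1 call was lost without pluripotent control shRNA replicate 1 (adjusted p 0.058) or embryoid body control shRNA replicate 3 (0.0793). The PRRX1 call was lost under 4 of the 7 alternatives that left it in the test and with any of 9 of the 16 arrays left out, at adjusted p up to 0.152 without embryoid body control shRNA replicate 2.

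In untransduced cells SCUBE2 rose by 2.02 ± 0.19 with differentiation, SCRG1 by 1.97 ± 0.16, PRELP by 1.30 ± 0.15 and PDGFRA by 0.46 ± 0.15 (adjusted p 0.020), where 25.8% of all genes were higher. The rises of SCUBE2 and SCRG1 were favoured by the filter here too. The PDGFRA call was lost with 18 arrays (adjusted p 0.11), without pluripotent replicate 3 (0.106) and without embryoid body replicate 3 (0.054). MEF2C was at -0.38 ± 0.16 (adjusted p 0.056), TWIST1 at -0.08 ± 0.12 and PRRX1 at -0.15 ± 0.12. MEF2C passed in the lower direction by quantile normalization (-0.38, adjusted p 0.037), with a filter at the 60th percentile (0.044) and without pluripotent replicate 3 (-0.56, adjusted p 0.0084), pluripotent control shRNA replicate 1 (0.036) or either KBTBD8 shRNA embryoid body array (0.046 each). Under the KBTBD8 shRNA the arrays numbered 2 had been set apart for their state, so this contrast is given with no test. The differences were 0.96 for PRELP, 0.78 for TWIST1, 0.68 for PDGFRA, 0.64 for SCRG1, 0.25 for PRRX1, 0.17 for SCUBE2 and -0.08 for MEF2C on 16 arrays. On 18 arrays they were 0.46, 0.45, 0.25, 0.16, 0.02, -0.13 and -0.35 in the same order of genes. The limma threshold was passed by 4 of the 7 on 16 arrays, where 17.3% of all genes were higher, and by 0 on 18 arrays, where 0.0% were, and nothing is read from these counts.

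**Figure D3:**
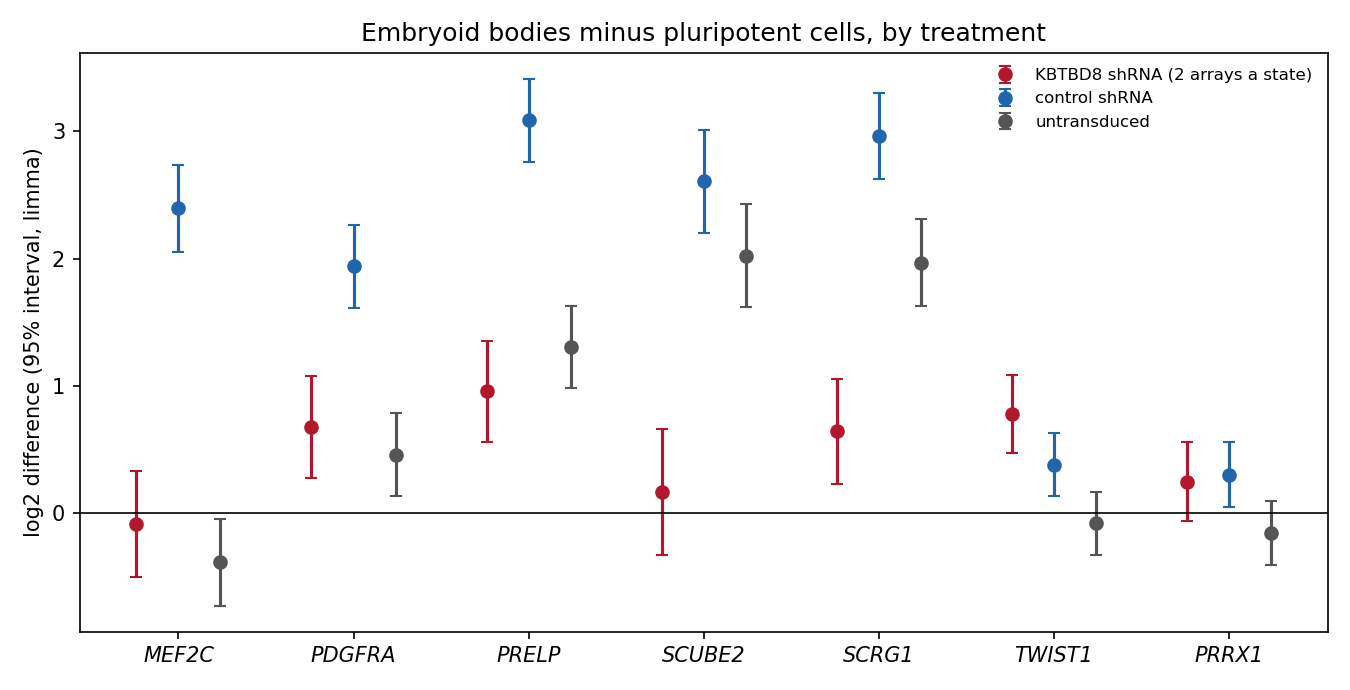
Log2 difference (vertical axis) between embryoid bodies and pluripotent cells for each measured gene under the KBTBD8 shRNA, the control shRNA and no transduction, from the 16 arrays. Bars are 95% intervals of the limma fit. Those under the KBTBD8 shRNA rest on arrays kept after the others were set apart for their state, and are not read as a test. MEF2C differs by -0.08 with the KBTBD8 shRNA, against 2.39 with the control shRNA and -0.38 untransduced, whereas SCUBE2 and SCRG1 also differ, by 2.02 and 1.97, in untransduced cells.

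Other genes of the same pathways were read from 7 lists with 52 genes, of which 41 were tested. Between KBTBD8 shRNA and control shRNA embryoid bodies 4 of the 41 were higher and 4 lower, against 5.80% of all genes in either direction. Among 5 PDGF ligands and receptors, PDGFC, a ligand of PDGFRA, fell by 0.87 and PDGFD, a ligand of PDGFRB, rose by 0.96, while PDGFA was at 0.28 (adjusted p 0.21). Of 6 genes of the endothelin axis only EDNRB, the receptor of early crest and melanocyte precursors, was lower (-1.05), a call lost with 18 arrays (-0.59, adjusted p 0.58). Among 17 tested transcription factors of jaw and skull, DLX5 (2.22) and DLX6 (0.75), which give the lower jaw its identity, were higher and 0 were lower, and both calls were lost with 18 arrays (adjusted p 0.88 and 0.89). FMOD, a proteoglycan of the same family as PRELP, fell by 1.12, and like MEF2C it passed the filter only on the 3 control shRNA embryoid body arrays, so that a difference there was bound to appear. In the list of TWIST partners and their inhibitors ID1 rose by 0.55 and ID3 fell by 0.51 out of 7, and both were lost with 18 arrays. The relatives MEF2A, MEF2D, SCUBE1 and SCUBE3 did not pass. All directions named here were the same after quantile normalization.

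Between control shRNA and untransduced embryoid bodies 22 of the 41 genes were higher and 7 lower, against 44.8% of all genes in either direction. All 6 endothelin genes were higher, with EDNRB at 1.79 and EDN1, the ligand of EDNRA, at 0.78, and 4 of the 6 were with 18 arrays. EDN1 was above the filter on 5 arrays, among them all 3 control shRNA embryoid body arrays and none of the untransduced ones. Its higher value was thus favoured by the filter. EDN2 (0.40, adjusted p 0.135 with 18 arrays) and ECE2 (0.23, adjusted p 0.0653) lost their calls, and quantile normalization brought them to 0.22 and 0.06. PDGFA (1.28) and PDGFC (0.41), ligands of PDGFRA, were higher, as were PDGFB (0.37) and PDGFRB (0.53), and PDGFD (-0.84) was lower. With 18 arrays the calls of PDGFB (adjusted p 0.0795) and PDGFRB (0.0904) were lost. Quantile normalization brought PDGFC to 0.23 and PDGFB to 0.19. Of the jaw and skull factors 7 of 17 were higher, with MSX2 at 2.29, DLX3 at 1.11 and DLX5 at 0.81, and PRRX2 was lower (-0.38). With 18 arrays 1 of the 17 was higher, MSX2, and the calls of DLX3 (adjusted p 0.107) and DLX5 (0.677) were lost. FMOD (1.27) and BGN (0.48) were higher, FMOD under the same limit. SCUBE1 fell by 1.28, whereas its relative SCUBE2 was higher. With all 18 arrays 8 were higher and 6 lower, against 27.1% of all genes in either direction.

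Markers of crest, and some of those of endoderm and of neurons and glia, were also lower in embryoid bodies with the KBTBD8 shRNA. Of all genes tested, 2.96% were lower in KBTBD8 shRNA than in control shRNA embryoid bodies. All 8 markers of early and migrating crest were lower there, among them ETS1 (-3.19), SNAI2 (-2.52), TFAP2B (-2.14) and PAX3 (-1.95). Their summed log2 level was 57.8 to 59.4 with the KBTBD8 shRNA, against 72.3 to 73.0 with the control shRNA and 46.2 to 47.1 untransduced. With 18 arrays 6 of the 8 were lower, where 1.51% of all genes were, and the calls of TFAP2A (adjusted p 0.34) and TFAP2B (0.0623) were lost. All 8 were higher in KBTBD8 shRNA than in untransduced embryoid bodies on 16 arrays and 3 of the 8 on 18 arrays, whereas PRELP, SCUBE2 and SCRG1 were lower in that comparison on both. Of all genes, 22.5% were higher there on 16 arrays and 17.6% on 18 arrays. PAX3 was above the filter on 6 arrays, among them both KBTBD8 shRNA embryoid body arrays of the 16 and none of the untransduced ones, so its higher value was favoured by the filter. FOXD3 was below the filter on all arrays of these groups among the 16. Of 5 endoderm markers 2 were lower in KBTBD8 shRNA than in control shRNA embryoid bodies, AFP (-2.79) and TTR (-2.60). SOX17 (0.10), FOXA2 (0.05) and GATA6 (-0.01) did not pass. The 5 endoderm markers summed to 26.1 to 27.9 with the KBTBD8 shRNA, against 32.0 to 32.7 with the control shRNA and 24.5 to 25.3 untransduced. AFP was above the filter on 6 arrays, all with the control shRNA. TTR was above it, among the embryoid bodies of the 16 arrays, only with the control shRNA. Lower values of both with the KBTBD8 shRNA were thus favoured by the filter. Of 4 neuron and glia markers 3 were lower, with sums of 23.9 to 24.0, against 27.9 to 28.6 and 23.7 to 24.0 in the same order. In pluripotent cells TTR (-1.35, adjusted p 8.3e-05), AFP (-0.75, 0.036) and STMN2 (-1.41, 5.9e-05), a neuronal marker, were also lower with the KBTBD8 shRNA. In that comparison 0 of the 7 members and 14.0% of all genes passed in either direction. The STMN2 call was lost with 18 arrays (adjusted p 0.37). The part of these cells in the result was not tested.

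Of mesoderm markers, where MEF2C and PDGFRA are also known, 0 of 2 cardiac and lateral and 0 of 4 paraxial and streak ones that were tested passed between KBTBD8 shRNA and control shRNA embryoid bodies, where 5.80% of all genes did. Between control shRNA and untransduced embryoid bodies 3 of the 4 paraxial and streak markers were higher, on 16 and on 18 arrays, as was KDR (2.22), a receptor of endothelium and early mesoderm, and 44.8% of all genes passed there. TEK, the other endothelial marker tested, did not pass. KDR was lower in embryoid bodies than in pluripotent cells, at -3.32 untransduced and -2.18 with the control shRNA. The 4 cardiac and lateral mesoderm markers summed to 21.1 to 22.5 in KBTBD8 shRNA embryoid bodies, 21.8 to 22.1 with the control shRNA and 21.1 to 22.1 untransduced, and HAND1 and TBX5 lay below the filter in every group. The endothelial markers PECAM1, CDH5 and TIE1 were below the filter in every group, and the 5 endothelial markers summed to 27.4 to 28.0 with the KBTBD8 shRNA, against 27.6 to 27.8 with the control shRNA and 24.4 to 25.3 untransduced. Paraxial mesoderm and streak markers summed to 28.3 to 29.4, against 28.2 to 28.5 and 25.7 to 26.3 in that order. The sums of 5 pluripotency markers were 44.2 to 44.5, against 43.2 to 43.3 and 38.3 to 39.5. Of those 5, 1 was higher with the KBTBD8 shRNA than with the control shRNA, and 4 were higher with the control shRNA than without transduction. The part of these cells in the result was not tested either.

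The genes most like each member over the 16 arrays were found by Pearson correlation among 14202 other tested genes, as a description only, since r follows the differences between the 6 groups. MEF2C was most like KANK4 (r 0.971, Spearman 0.741), FMOD (0.957, 0.524) and NPR3 (0.936, 0.406), the last being a clearance receptor for natriuretic peptides. The lower rank correlations go with a pattern in which these genes share the high control shRNA embryoid bodies and little else. PDGFRA was most like PDE1B (0.978), STRA6 (0.965), a retinol transporter, and RELN (0.963). SCRG1 was most like SORCS1 (0.963), ZNF528 and PPP1R12B, PRELP most like ITGA4 (0.958), an integrin of migrating crest, KRTAP21-1 and NOS2, and SCUBE2 most like GNG2 (0.952), CPE and GFRA2.

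TWIST1 stood with other genes. It was most like GRHL3 (r 0.935, Spearman 0.956), a transcription factor of surface ectoderm, PPP1R13L (0.934) and ERP27 (0.918). GRHL3 averaged 8.09 ± 0.02 (SD, n = 2) in KBTBD8 shRNA embryoid bodies, against 7.46 ± 0.12 (n = 3) with the control shRNA and 5.24 ± 0.11 (n = 3) untransduced, which is the order of the TWIST1 means. PRRX1 had the lowest likeness of the 7 genes, with CCDC88B (0.889), PLD2 (0.888) and GOLGA2 (0.875). MEF2C, PDGFRA, PRRX1, PRELP, SCUBE2 and SCRG1 had their highest mean in control shRNA embryoid bodies, where the summed crest markers were also highest, and TWIST1 did not. PRELP, SCUBE2 and SCRG1 were also higher in untransduced embryoid bodies than in untransduced pluripotent cells. In that comparison 5 of the 8 crest markers were higher, with TFAP2A at 1.56 and TFAP2B at 1.10, where 25.8% of all genes were. The lower ones were 2, ETS1 (-2.80) and FOXD3 (-1.17). With 18 arrays 1 was higher and 2 were lower, where 5491 of 14209 genes passed in either direction. TFAP2A was above the filter on 10 arrays and TFAP2B on 9, among them all embryoid body arrays used. Higher values of both in embryoid bodies were thus favoured by the filter.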

How the data were processed

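Transcripts were measured on 18 arrays. The deposited values are log2 intensities per probe set. The submitters' processing notes name GCRMA, without a version, as what the authors ran. That the logarithm is to base 2 was inferred from the range of values, and raw arrays were not analysed here. Of 33297 probe sets, 19460 carried 1 gene symbol, 1754 several and 12083 none in the platform annotation. Symbols were updated through RefSeq.

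Groups came from the sample titles. A limma model (3.58.1, R 4.3.3) with 6 group means was fitted to 14209 genes on 16 arrays, with 10 residual degrees of freedom, and p-values were adjusted by Benjamini-Hochberg over all tested genes within each of 10 comparisons. The fit recovered known changes put into simulated control shRNA embryoid body arrays, compared with untransduced ones. Changes under 1 on the log2 scale, and changes in the KBTBD8 shRNA groups, were not simulated. Replicate numbers did not pair the arrays: deviations of arrays with the same number correlated at a median of 0.03 (-0.38 to 0.43). Precision is limited by the number of arrays. Alternatives were all 18 arrays, only the groups compared, a replicate block, quantile normalization, other filters, mean of probe sets, an intensity trend and 1 array left out. Figures used matplotlib 3.10.9. The members, lists and alternatives were chosen with earlier results of these data known. Genes named are the members, KBTBD8, the 3 genes most like each member and up to 4 called genes of each list with the largest differences, and a gene given beside them for its role was chosen after its values were seen.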

Additional observations from a re-analysis of the deposited data

Results flagged for a closer look

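The difference between KBTBD8 shRNA and control shRNA was unlike in the 2 states for 5 genes, in the interaction term of the limma fit on 16 arrays. That term uses the KBTBD8 shRNA arrays kept after the others were set apart for their state, so it is given as a description. The knockdown difference in embryoid bodies minus that in pluripotent cells was -2.48 for MEF2C, -2.44 for SCUBE2, -2.32 for SCRG1, -2.13 for PRELP and -1.26 for PDGFRA. The count of 5 of 7 members, where 6.12% of all genes passed in this direction, held with any 1 array left out. Of these 5 genes, MEF2C, SCUBE2 and SCRG1 were favoured in this direction by the filter. In embryoid bodies all 5 were lower on every KBTBD8 shRNA array than on every control shRNA one, as were 18.2% of all genes. The difference between control shRNA and untransduced cells also depended on the state, by 2.78 for MEF2C, 1.78 for PRELP, 1.48 for PDGFRA and 0.99 for SCRG1, each larger in embryoid bodies. For MEF2C this was bound to appear, since only control shRNA embryoid bodies had it above the filter. These 2 sets of values share the control shRNA arrays.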

How the results depend on the processing

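The 5 lower genes in KBTBD8 shRNA against control shRNA embryoid bodies, and the 7 higher genes in control shRNA against untransduced embryoid bodies, kept their counts with any 1 array left out (5 to 5 and 7 to 7). On 16 arrays 2.96% of all genes were lower in the first comparison and 24.6% higher in the second. MEF2C stayed in the test whichever array was left out, though only the 3 control shRNA embryoid body arrays had it above the filter. Its part in both counts was thus bound to appear, and those of SCUBE2 and SCRG1 in the first were favoured by the filter. With all 18 arrays and the labels as given, 0 members were called in differentiation under the KBTBD8 shRNA, against 4 on 16 arrays (2 to 4 with 1 array left out). Control shRNA against untransduced pluripotent cells gave 0 to 1 members with 1 array left out, the 1 being PDGFRA (0.47, adjusted p 0.038) without untransduced replicate 2. Genes called between KBTBD8 shRNA and control shRNA numbered 352 with 18 arrays, against 824 with 16, in embryoid bodies and 729, against 1991, in pluripotent cells. Control shRNA against untransduced gave 3850, against 6370, in embryoid bodies and 1713, against 4132, in pluripotent cells (2644 with only the groups compared). The knockdown interaction gave 521, against 1402, the control shRNA interaction 744, against 2398, and differentiation under the KBTBD8 shRNA 0, against 5465. Fitting only the groups compared changed no member's call or sign, and the replicate block changed 2 of 80 values, the MEF2C difference in untransduced differentiation, called at -0.38 (adjusted p 0.016), and PDGFRA in pluripotent knockdown, which turned to -0.0038. The stricter filter at the 60th percentile dropped PRRX1 and KBTBD8 from the test. Signs turned only for values that did not pass. With 18 arrays these were SCUBE2 (-0.13) and KBTBD8 (0.00017) in differentiation under the KBTBD8 shRNA, MEF2C (0.089), TWIST1 (0.025) and SCUBE2 (0.012) in pluripotent knockdown, and MEF2C (-0.017) in KBTBD8 shRNA against untransduced embryoid bodies. Quantile normalization turned MEF2C to 0.013 in pluripotent knockdown and to -0.038 in the last of these. With 1 array left out, pluripotent knockdown ran from -0.21 to 0.12 for MEF2C, -0.15 to 0.19 for PDGFRA, -0.36 to 0.015 for PRRX1, -0.46 to 0.14 for SCUBE2 and -0.19 to 0.26 for SCRG1. Differentiation ran from -0.14 to 0.0088 for untransduced TWIST1, and under the KBTBD8 shRNA from -0.30 to 0.13 for MEF2C and -0.13 to 0.47 for SCUBE2. KBTBD8 ran from -0.15 to 0.15 against the control shRNA, -0.045 to 0.45 for control shRNA against untransduced and -0.039 to 0.46 for its shRNA against untransduced, all in embryoid bodies. PRELP ran from -0.019 to 0.31 in control shRNA against untransduced pluripotent cells, MEF2C from -0.092 to 0.34 in KBTBD8 shRNA against untransduced embryoid bodies, and the PRRX1 knockdown interaction from -0.24 to 0.13. With 18 arrays, differences between groups without the KBTBD8 shRNA stayed the same, and only their standard errors and adjusted p moved. For SCRG1 in the control shRNA interaction the standard error went from 0.23 to 0.34. The cause of the other changes was not tested. Values near the low end of the intensity scale, such as MEF2C outside control shRNA embryoid bodies, limit what a sign can show.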

Other observations

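DLX5 and MSX2 are homeodomain factors of the neural border, placodes and jaw. DLX5 was 2.22 ± 0.14 higher in KBTBD8 shRNA than in control shRNA embryoid bodies (limma, adjusted p 7.2e-08), and 3.03 ± 0.14 higher than in untransduced ones. With all 18 arrays these were 0.61 (adjusted p 0.88) and 1.42 (adjusted p 0.41). MSX2 differed by -0.15 ± 0.22 (adjusted p 0.85) between KBTBD8 shRNA and control shRNA embryoid bodies, while it was 2.14 ± 0.22 higher with the KBTBD8 shRNA, and 2.29 ± 0.20 higher with the control shRNA, than in untransduced embryoid bodies. With all 18 arrays MSX2 was at -0.95 (adjusted p 0.56) between KBTBD8 shRNA and control shRNA embryoid bodies, and its call with the KBTBD8 shRNA against untransduced ones was lost (1.34, adjusted p 0.11).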
